A study of Homo sapiens with 6 samples.

Results

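The ATP-binding cassette (ABC) genes of MM.1S cells were compared between lenalidomide-resistant (LenR) and DMSO-treated (WT) cultures. A gene counted as a member if its symbol began with ABCA to ABCG followed by a number and RefSeq lists it as protein coding. The rule found 26 members among the 12760 genes of the table, and the pseudogene ABCA11P was left out. MM.1S is an established human line of multiple myeloma, a plasma cell malignancy. The LenR cells had been kept in lenalidomide, which started at 10 nM and was raised 10-fold each month for 3 months. The WT cells had been kept in the solvent DMSO over the same time. Each group had 3 RNA-seq libraries, called biological replicates in the labels, and the labels give the genotype as WT for all 6. Whether the LenR replicates came from 1 selection or several, and whether the cells were harvested in drug, the labels leave unstated. The p-values therefore reflect only how these cultures varied, which may be technical, and selection and current exposure cannot be told apart.

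ABC proteins bind and hydrolyse ATP through paired nucleotide-binding domains, and most use that energy to move a substrate across a membrane. The family is best known for efflux pumps that carry drugs and glutathione conjugates out of tumour cells. Other members move lipids and sterols, feed fatty acids into peroxisomes, or serve heme metabolism in mitochondria. The ABCE and ABCF proteins have no membrane-spanning domain and work on ribosomes and translation. The 26 members fell into 6 drug efflux, 7 lipid and sterol, 3 peroxisomal, 2 lysosomal and 4 mitochondrial transporters and 4 non-transporters. ABCB1, the classical multidrug pump, and the sterol exporter ABCG1 were not among the genes of the table analysed here, nor were 17 other ABC genes.

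The plasma cell markers were high, with 10 of 11 listed genes in the table and a summed level of 4720 to 5660 FPKM in LenR and 4040 to 4650 FPKM in WT libraries. FPKM is fragments scaled to gene length and to library size, so levels of different genes can be set side by side only as far as the lengths used are right. Of markers of other cell types, CD3E and GNLY summed to 3.07 to 3.87 FPKM in LenR and 3.71 to 4.11 FPKM in WT libraries, COL1A1 reached at most 0.429 FPKM and HBB at most 8.31 FPKM, and none of the 7 myeloid markers was among the genes analysed. Where these transcripts came from in a cultured line, and their part in the results, was not tested. In bulk RNA, fewer cells with a transcript and less of it per cell cannot be told apart. The reads behind the FPKM values could be worked out and came to 14500140 to 17387914 per library. WT replicate 3 and LenR replicate 2 stood apart together on the second principal component (26.8% of the variance), at −14 and −13.7. LenR replicate 3 lay far out on the other side, at 12.7, and the remaining libraries at 2.62 to 6.62. WT replicates 1 and 2 were closer than any other pair, with a median chi-square of 1.168 times sampling noise, against 3.891 for the next pair, and may not be independent cultures.

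Compared with WT, LenR cells had more ABCG2, ABCA1, ABCA9 and ABCB9 and less ABCB6, ABCA3 and ABCA2, each by at least 1 of the tests below, and only ABCB6, ABCB9 and ABCA3 by the main one. Of 19 members with a mean of at least 1 FPKM, 1 was higher in LenR (ABCB9) and 2 were lower (ABCB6 and ABCA3) at an adjusted p of 0.05 by limma on log2(FPKM + 1). ABCA3 reached the minimum only through its WT level, with a mean of 0.82 FPKM in LenR and 1.27 FPKM in WT. These 3 members are 15.8% of the 19, and 15.1% of all 11276 genes tested passed. By direction, 8.57% of all genes were higher and 6.57% lower in LenR. The median log2 fold change was −0.06 over the 19 members and 0.00 over all genes. Without the minimum of 1 FPKM, 5 of 26 members passed (2 higher, 3 lower), against 16.3% of 12760 genes (9.04% higher, 7.29% lower). On the reads themselves (voom), 7 of 26 passed (4 higher, 3 lower), against 17.0% of all genes (9.75% higher, 7.3% lower). LenR and WT libraries did not overlap for 14 of the 26 members, 8 higher and 6 lower in LenR (53.8%, against 35.5% of all genes in the table, 18.5% higher and 17.0% lower). Among the 19 tested members it was 8, of which 3 were higher and 5 lower, or 42.1%, against 34.5% of the genes tested (18.0% higher and 16.5% lower).

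**Figure D1:**
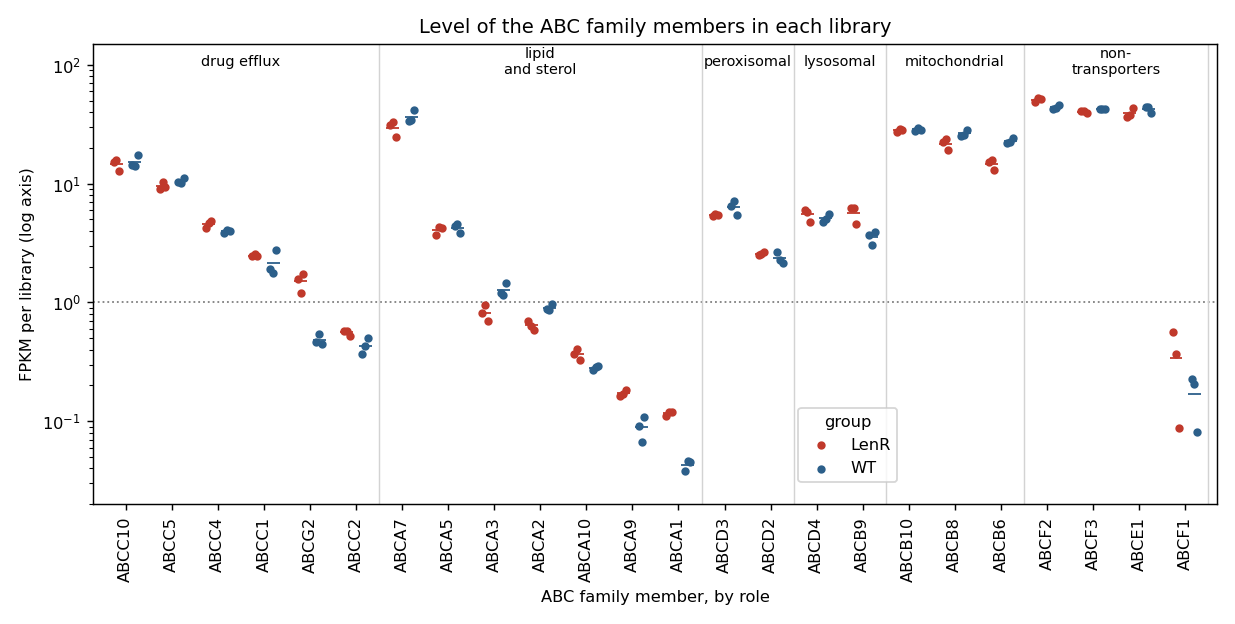
FPKM of 24 ABC members in each library on a log axis, LenR (red) left of WT (blue), grouped by role. Points are libraries and bars are means of 3. The dotted line marks 1 FPKM, with ABCF2 highest at a mean of 47.5 FPKM over 6 libraries and ABCA1 lowest at 0.0801 FPKM.

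The members' levels spanned a wide range. The translation factors ABCF2, ABCF3 and ABCE1 led, with means of 47.5, 41.4 and 40.8 FPKM over the 6 libraries, followed by ABCA7 (33.1), ABCB10 (28.4), ABCB8 (24.1), ABCB6 (18.8) and ABCC10 (15.0). The levels of ABCF3 and ABCE1 did not differ from each other beyond their spread. The remaining 18 members averaged less than ABCC10, and 7 of them were below 1 FPKM. The reads of those 7 numbered at least 7 per library, so their fold changes are less precise than those of ABCB6 or ABCF2. ABCF1 is the most uncertain of them, for a reason given with the non-transporters.

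Upstream sequence is shown for ABCG2 and ABCA1, whose fold changes on the reads were the largest, and for ABCB9 and ABCB6, which differed along with their chromosome neighbours, so that their start regions can be set side by side. Each run is the 250 bases before the gene's RefSeq start (GRCh38.p14), 5′ to 3′ on the gene's strand, which is minus for all 4. They lie at chr4:88158910-88159159 (ABCG2), chr9:104928156-104928405 (ABCA1), chr12:122974570-122974819 (ABCB9) and chr2:219218959-219219208 (ABCB6). ABCG2 has 5 and ABCB9 has 3 RefSeq starts, of which the middle one by position was used. Capitals mark GC boxes (GGGCGG, either strand) and E-boxes (CACGTG, the same on both strands).
ABCG2: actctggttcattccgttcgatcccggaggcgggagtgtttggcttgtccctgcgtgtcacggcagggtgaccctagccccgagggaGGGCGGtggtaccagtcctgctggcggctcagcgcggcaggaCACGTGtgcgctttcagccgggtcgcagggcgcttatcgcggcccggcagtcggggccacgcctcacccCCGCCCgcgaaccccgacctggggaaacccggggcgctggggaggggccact
ABCA1: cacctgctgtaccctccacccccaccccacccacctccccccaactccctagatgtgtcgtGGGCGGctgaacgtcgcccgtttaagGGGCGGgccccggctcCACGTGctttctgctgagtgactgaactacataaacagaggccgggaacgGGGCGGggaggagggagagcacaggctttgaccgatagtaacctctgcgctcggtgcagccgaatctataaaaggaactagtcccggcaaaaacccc
ABCB9: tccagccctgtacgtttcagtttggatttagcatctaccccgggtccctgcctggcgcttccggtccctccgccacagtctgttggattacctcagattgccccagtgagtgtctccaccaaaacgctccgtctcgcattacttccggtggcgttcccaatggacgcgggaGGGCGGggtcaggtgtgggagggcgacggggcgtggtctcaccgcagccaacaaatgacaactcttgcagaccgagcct
ABCB6: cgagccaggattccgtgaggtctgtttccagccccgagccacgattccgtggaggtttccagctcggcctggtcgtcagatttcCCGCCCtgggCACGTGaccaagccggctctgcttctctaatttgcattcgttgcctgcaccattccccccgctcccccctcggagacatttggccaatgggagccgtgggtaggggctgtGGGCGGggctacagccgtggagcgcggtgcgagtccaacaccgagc

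ABCG2, ABCA1 and ABCB6 each had 1 E-box, and ABCB9 had none. GC boxes numbered 2 in ABCG2, 3 in ABCA1, 1 in ABCB9 and 2 in ABCB6. Of the 23 members with a window, 16 held a GC box and 6 an E-box, against 41.9% and 6.34% of 27305 RefSeq windows of the same length. Those windows were not limited to genes of the expression table, as the members are, so the shares are not like for like. The core of the antioxidant response element (TGACNNNGC, either strand) was found in 7 members, ABCB6 and ABCB9 among them, against 11.0% of windows. In ABCB6 it overlaps the E-box, and in ABCB9 it overlaps the GC box. An exact match to a 16-letter direct repeat of liver X receptors (either strand) was in no member's window and in 0.0183% of all windows. Near matches were not searched for, so this does not show that any window, that of ABCA1 included, lacks such a site. A match is only a stretch of letters, not a site in use.

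Among the 6 drug efflux members, ABCG2 rose, while the ABCC pumps did not pass. ABCG2 (chromosome 4, 88090264 to 88231322, GRCh38) encodes the breast cancer resistance protein, a pump of many cancer drugs and of urate. It measured 1.57, 1.21 and 1.75 FPKM in LenR replicates 1 to 3, against 0.467, 0.545 and 0.446 FPKM in WT replicates 1 to 3. Every LenR library lay above every WT library. The counts behind these values were 109, 91 and 146 reads in LenR and 39, 43 and 31 reads in WT libraries. The ratio of the mean levels was 3.11 (1.51 ± 0.279 in LenR, 0.486 ± 0.0522 FPKM in WT, SD, n = 3 each). Its mean over the 6 libraries, 0.998 FPKM, lay just below the minimum of 1 FPKM, so it was not among the 19 members of the main limma test. Without that minimum it passed (log2 fold change 0.75, SE 0.0866, limma adjusted p = 0.00103), and on the reads the log2 fold change was 1.62 (SE 0.197, voom adjusted p = 0.000602). On the reads it also passed without each library in turn, with adjusted p from 0.000201 to 0.00668. Of 21 tested genes within 5 Mb of ABCG2, 12 were below and 9 above 0, with a median log2 fold change of −0.04.

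ABCC1, which encodes MRP1, an exporter of glutathione conjugates and drugs, measured 2.44, 2.55 and 2.46 FPKM in LenR replicates 1 to 3, against 1.91, 1.77 and 2.78 FPKM in WT replicates 1 to 3. WT replicate 3 was above every LenR library, so the groups overlapped. The log2 fold change was 0.16 (95% interval −0.12 to 0.43, limma adjusted p = 0.439). Without WT replicate 3 it passed as higher in LenR (adjusted p = 0.042). LenR replicates 1 and 3 against WT replicates 1 and 2 gave a log2 fold change of 0.28 (limma adjusted p = 0.0643), while LenR replicate 2 against WT replicate 3 gave −0.09. The gene length behind the ABCC1 values was 1.73 times its exon length in GENCODE 29, against a median of 0.727 over all genes, so its level is uncertain.

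The other ABCC members showed small differences. ABCC4 (MRP4), an exporter of cyclic nucleotides and nucleoside analogues, measured 4.20 to 4.87 FPKM in LenR and 3.85 to 4.08 FPKM in WT libraries, without overlap, but its log2 fold change of 0.17 (95% interval 0.01 to 0.33) did not pass (limma adjusted p = 0.161). ABCC5 (MRP5) averaged 9.59 ± 0.698 FPKM in LenR and 10.6 ± 0.547 FPKM in WT (SD, n = 3 each), with a log2 fold change of −0.13 (95% interval −0.30 to 0.04). ABCC10 (MRP7), the most abundant of this class, averaged 14.6 ± 1.54 and 15.3 ± 1.75 FPKM in LenR and WT. ABCC2 (MRP2), the canalicular exporter of liver, measured 0.525 to 0.580 FPKM in LenR and 0.366 to 0.503 FPKM in WT libraries, and did not pass on the reads (log2 fold change 0.39, voom adjusted p = 0.159). The 6 efflux members summed to 33.4 ± 1.67 FPKM in LenR and 32.9 ± 2.85 FPKM in WT, most of it ABCC10 and ABCC5.

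**Figure D2:**
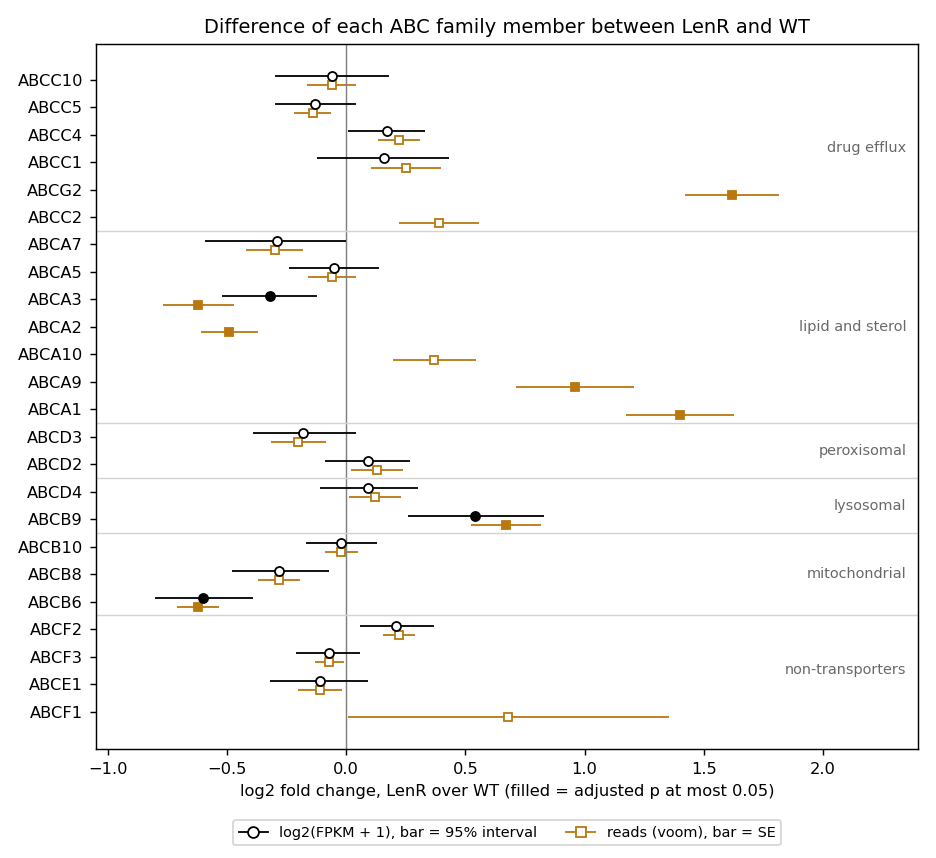
Log2 fold change, LenR over WT, of each member by role. Circles are limma on log2(FPKM + 1) with 95% intervals (17 members), squares are voom on reads with SE (24 members), and filled symbols passed adjusted p 0.05. ABCG2 (1.62 on reads) and ABCA1 (1.40) lie farthest to the right, and ABCB6 (−0.62) and ABCA3 (−0.62) farthest to the left.

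The 7 lipid and sterol transporters moved both ways. ABCA1 (chromosome 9, 104781002 to 104928237), which loads cellular cholesterol onto apolipoproteins and is a classical target of liver X receptors, measured 0.111, 0.120 and 0.120 FPKM in LenR replicates 1 to 3, against 0.0380, 0.0459 and 0.0456 FPKM in WT replicates 1 to 3. The groups did not overlap, and the values stood on 17, 20 and 22 reads in LenR and 7, 8 and 7 reads in WT libraries. On the reads ABCA1 rose (log2 fold change 1.40, SE 0.225, voom adjusted p = 0.00275), and it passed without each library in turn (adjusted p 0.00741 to 0.019). On log2(FPKM + 1), a scale that compresses such low values, its log2 fold change was 0.10 (limma without a minimum, adjusted p = 0.158). ABCA9 (0.163 to 0.182 FPKM in LenR, 0.0670 to 0.109 FPKM in WT libraries) rose on the reads as well (0.96, adjusted p = 0.0272), from 7 to 20 reads per library. That call ended without any 1 of WT replicates 1 and 2 or the 3 LenR replicates, with adjusted p up to 0.116.

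ABCA3 and ABCA2 fell. ABCA3 (chromosome 16, 2275881 to 2340746), which fills the lamellar bodies of lung cells with surfactant lipid, measured 0.809, 0.953 and 0.699 FPKM in LenR replicates 1 to 3, against 1.21, 1.15 and 1.45 FPKM in WT replicates 1 to 3. No LenR library reached the lowest WT library. The log2 fold change was −0.32 (SE 0.0863, limma adjusted p = 0.0451) and −0.62 on the reads (voom adjusted p = 0.0197). The limma call ended without any 1 library except LenR replicate 2, with adjusted p from 0.0783 (without WT replicate 2) to 0.133 (without LenR replicate 1), and at 0.0638 without WT replicate 3 and LenR replicate 2 together. The pseudogene ABCA17P overlaps ABCA3 on the other strand, and its reads may be shared. ABCA2, a lysosomal lipid transporter, measured 0.588 to 0.698 FPKM in LenR and 0.866 to 0.966 FPKM in WT libraries and passed without the minimum (limma adjusted p = 0.0335) and on the reads (−0.49, voom adjusted p = 0.0221). The call on the reads was kept without LenR replicate 1 (adjusted p = 0.0384) and lost without any other 1 library (adjusted p up to 0.0703). C9orf139 overlaps ABCA2, and its reads may be shared as well.

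ABCA7, a phospholipid transporter known as a risk gene of Alzheimer disease, was the most abundant of this class. It measured 31.1, 33.1 and 24.9 FPKM in LenR replicates 1 to 3, against 33.8, 34.1 and 41.8 FPKM in WT replicates 1 to 3. The groups did not overlap but nearly met, and the log2 fold change of −0.29 did not pass (95% interval −0.59 to 0.00, limma adjusted p = 0.171). ABCA5 averaged 4.08 ± 0.307 FPKM in LenR and 4.27 ± 0.409 FPKM in WT (log2 fold change −0.05). ABCA10 had 0.325 to 0.409 FPKM in LenR and 0.270 to 0.292 FPKM in WT libraries, and did not pass on the reads (0.37, voom adjusted p = 0.187). ABCA5, ABCA10 and ABCA9 are neighbours on chromosome 17, and ABCA5 and ABCA10 overlap on the same strand.

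Of 14 tested genes of liver X receptor signalling and sterol handling, 5 rose and none fell (35.7% called, against 15.1% of all genes), with a median log2 fold change of 0.17. As the list was chosen with earlier results of these data known, this share is a description and not a test. SCARB1, a receptor for high-density lipoprotein, had the highest value (47.3 ± 7.25 FPKM in LenR, 24.9 ± 5.16 FPKM in WT, log2 fold change 0.90, limma adjusted p = 0.00681). It lies on chromosome 12, where 63 of 65 tested genes within 5 Mb were above 0 (median 0.33). SREBF1 (0.75, limma adjusted p = 0.00997), NPC2 (0.54, 0.0161) and MYLIP (0.45, 0.00616) rose too. The medians of their tested neighbours within 5 Mb were −0.01, −0.09 and 0.02. SCD, a fatty acid desaturase, had the smallest rise of the 5 (379 ± 14.3 FPKM in LenR, 288 ± 3.92 FPKM in WT, 0.39, limma adjusted p = 0.0118), and its call ended without WT replicate 1 (0.0786) or WT replicate 2 (0.0739). The receptor genes did not pass. NR1H2 had a log2 fold change of 0.10 (limma adjusted p = 0.462), and NR1H3 measured 0.920, 0.409 and 0.321 FPKM in LenR replicates 1 to 3, against 1.23, 0.886 and 0.946 FPKM in WT replicates 1 to 3 (voom adjusted p = 0.0696). Of their partners, RXRA averaged 4.79 ± 0.439 FPKM in LenR and 3.93 ± 0.187 FPKM in WT and did not pass (log2 fold change 0.23, limma adjusted p = 0.0885). RXRB, below 1 FPKM, fell on the reads (−1.50, voom adjusted p = 0.00485), but the length behind its values was 4.62 times the GENCODE exon length, so its level is uncertain.

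**Figure D3:**
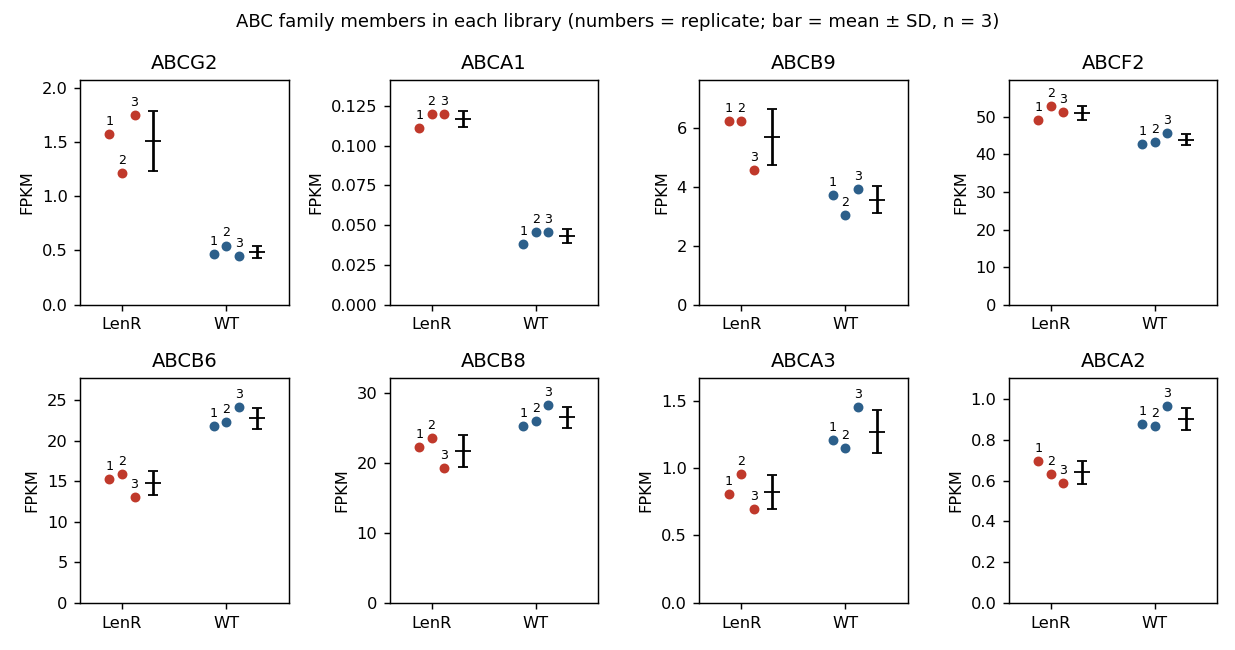
FPKM per library of 8 members, with LenR (red) left of WT (blue). Numbers are replicates, and black bars are mean ± SD of 3. The groups do not overlap in any of the 8 panels, which were all drawn from the 14 of 26 members without overlap. Of all genes in the table, 35.5% did not overlap either. ABCB9, ABCB6 and ABCA3 passed the main test, and ABCF2 and ABCB8 did not. ABCG2, ABCA1 and ABCA2 were below its minimum level and not part of it. ABCG2 runs from 1.21 to 1.75 FPKM in LenR and from 0.446 to 0.545 FPKM in WT.

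Of the 3 peroxisomal half-transporters, none passed. ABCD2, a transporter of very long chain fatty acids, averaged 2.58 ± 0.0804 FPKM in LenR and 2.36 ± 0.262 FPKM in WT (log2 fold change 0.09, 95% interval −0.09 to 0.27). ABCD3, which imports branched-chain fatty acids and bile acid precursors, averaged 5.48 ± 0.116 FPKM in LenR and 6.35 ± 0.885 FPKM in WT (−0.18, 95% interval −0.39 to 0.04). WT replicate 3 had 5.41 FPKM of ABCD3, within the LenR range, while WT replicates 1 and 2 had 6.47 and 7.16 FPKM. Of 22 tested genes of peroxisome biogenesis and beta-oxidation, 1 rose and 1 fell (median −0.02, 9.09% called, against 15.1% of all genes). PEX10 rose (log2 fold change 0.41, limma adjusted p = 0.0104), losing its call without WT replicate 1 (0.0501) or LenR replicate 1 (0.0512). PECR, a peroxisomal reductase on chromosome 2, fell (−0.31, limma adjusted p = 0.0231), as did the median of its 38 tested neighbours within 5 Mb (−0.68), and its call ended without any 1 library except LenR replicate 3 (adjusted p up to 0.0932).

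Of the mitochondrial members, ABCB6 fell and the other 3 did not pass. ABCB6 (chromosome 2, 219209766 to 219219017) moves porphyrins and is found in the outer mitochondrial membrane and in other membranes. It measured 15.3, 15.9 and 13.1 FPKM in LenR replicates 1 to 3, against 21.8, 22.3 and 24.2 FPKM in WT replicates 1 to 3. All LenR libraries lay well below all WT libraries. The log2 fold change was −0.60 (SE 0.0872, 95% interval −0.80 to −0.39, limma adjusted p = 0.00305). It was the 1 member that stayed called in all 18 alternatives, with adjusted p from 0.00139 to 0.0236. LenR replicates 1 and 3 against WT replicates 1 and 2 gave −0.61, and LenR replicate 2 against WT replicate 3 gave −0.57.

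Most chromosome neighbours of ABCB6 fell too. All 45 tested genes within 5 Mb were below 0, with a median log2 fold change of −0.69, and 38 of them passed. ABCB6 itself (−0.60) lay close to that median. Whether it fell apart from its neighbours was not tested. GENCODE 29 also places a gene named AC068946.2 over ABCB6 on the same strand, and their reads cannot be told apart here.

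ABCB8, a transporter of the inner mitochondrial membrane, measured 22.3, 23.6 and 19.2 FPKM in LenR replicates 1 to 3, against 25.3, 25.9 and 28.2 FPKM in WT replicates 1 to 3. The groups did not overlap, but the log2 fold change of −0.28 did not pass (95% interval −0.48 to −0.07, limma adjusted p = 0.0808, and 0.0544 to 0.254 over the alternatives). ABCF2 lies 165 kb away on chromosome 7 and had a log2 fold change of the opposite sign (0.21). ABCB10, which is needed for heme synthesis in red cell precursors, averaged 28.1 ± 1.07 FPKM in LenR and 28.6 ± 0.994 FPKM in WT (−0.02, 95% interval −0.17 to 0.13).

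Of 26 tested genes of mitochondrial heme and iron-sulfur synthesis, 3 rose and none fell (median log2 fold change 0.03, 11.5% called, against 15.1% of all genes). UROS, a heme synthesis enzyme, had the highest value (0.41, limma adjusted p = 0.0168). Of 22 tested genes within 5 Mb of UROS, 17 were above 0 and 9 were called, with a median of 0.21. The call of UROS ended without either WT replicate 1 (0.0505) or 2 (0.0643), and without LenR replicate 1 (0.0663). FECH, ferrochelatase, had the smallest rise (0.23, limma adjusted p = 0.0457), and its call ended without any 1 library except LenR replicate 1 (adjusted p up to 0.159).

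**Figure D4:**
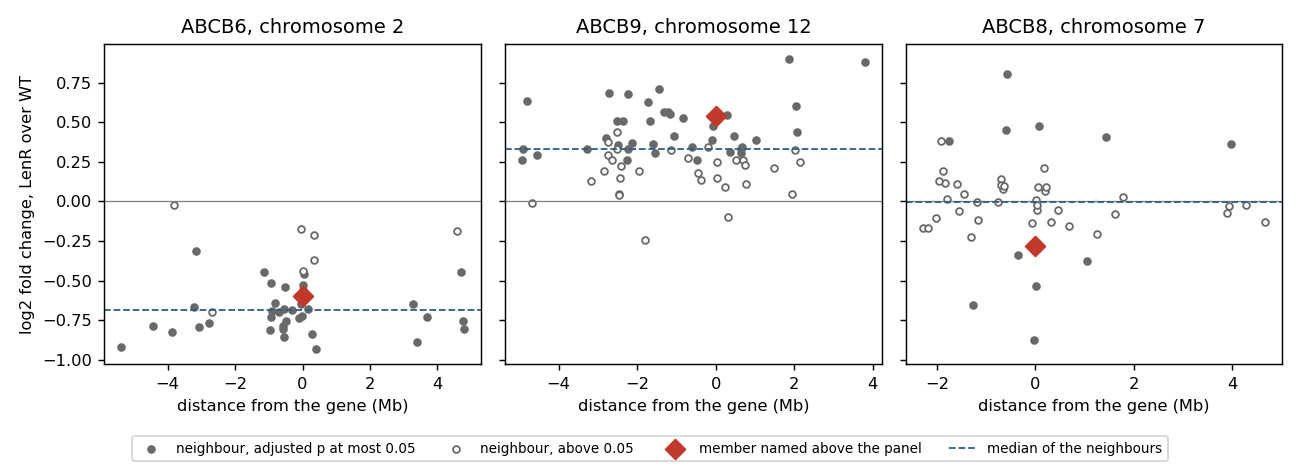
Log2 fold change, LenR over WT, of tested genes within 5 Mb of ABCB6, ABCB9 and ABCB8 by distance from the gene's midpoint in Mb. Filled circles passed adjusted p 0.05, the red diamond is the named member and the dashed line is the median of its neighbours, −0.69 around ABCB6, 0.33 around ABCB9 and 0.00 around ABCB8.

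Of the lysosomal members, ABCB9 rose. ABCB9 (chromosome 12, 122920951 to 122981649), also named TAPL, carries peptides from the cytosol into lysosomes. It measured 6.22, 6.25 and 4.58 FPKM in LenR replicates 1 to 3, against 3.73, 3.04 and 3.92 FPKM in WT replicates 1 to 3. LenR replicate 3 was the lowest of its group but still above all WT libraries. The log2 fold change was 0.54 (SE 0.123, 95% interval 0.26 to 0.83, limma adjusted p = 0.0224). The call ended without either WT replicate 1 (0.0563) or 2 (0.0762), and without either LenR replicate 1 (0.102) or 2 (0.055). Of 70 tested genes within 5 Mb, 67 were above 0, with a median log2 fold change of 0.33, and 39 passed. OGFOD2 and ARL6IP4, which overlap ABCB9 on the other strand, had log2 fold changes of 0.15 and 0.25, and as the strand setting of the counting is not given in the sources used here, their reads may be shared.

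ABCD4, which exports cobalamin (vitamin B12) from lysosomes, averaged 5.51 ± 0.628 FPKM in LenR and 5.09 ± 0.377 FPKM in WT (log2 fold change 0.09, 95% interval −0.11 to 0.30). Of 8 tested genes of cobalamin handling, 1 passed (12.5%, against 15.1% of all genes). It was MMAB, which makes adenosylcobalamin in mitochondria and rose to 14.1 ± 0.599 FPKM in LenR, against 9.16 ± 0.309 FPKM in WT (0.57, limma adjusted p = 0.000837). MMAB also lies on chromosome 12, where 73 of 74 tested genes within 5 Mb were above 0 (median 0.57). LMBRD1, the partner of ABCD4 in the lysosomal membrane, had a log2 fold change of −0.02.

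Of the non-transporters, none passed. ABCE1, which splits ribosomes into subunits after translation ends, measured 36.5, 38.1 and 43.0 FPKM in LenR replicates 1 to 3, against 44.3, 43.9 and 39.0 FPKM in WT replicates 1 to 3. The groups overlapped through LenR replicate 3 and WT replicate 3 (log2 fold change −0.11, 95% interval −0.32 to 0.09, limma adjusted p = 0.462). ABCF2 measured 49.1, 52.9 and 51.2 FPKM in LenR replicates 1 to 3, against 42.8, 43.4 and 45.7 FPKM in WT replicates 1 to 3. Every LenR library was above every WT library, but the log2 fold change of 0.21 did not pass (95% interval 0.06 to 0.37, limma adjusted p = 0.0737, and 0.051 to 0.331 over the alternatives). ABCF3 averaged 40.3 ± 0.614 FPKM in LenR and 42.5 ± 0.222 FPKM in WT, the narrowest spread of the 3 (log2 fold change −0.07). Its LenR libraries lay below its WT libraries without overlap, but it did not pass (limma adjusted p = 0.479).

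ABCF1, which binds the initiation factor eIF2, was listed at 0.564, 0.370 and 0.0873 FPKM in LenR replicates 1 to 3, against 0.226, 0.204 and 0.0818 FPKM in WT replicates 1 to 3. The values varied more within the groups than between them, with replicate 3 of each group lowest. The gene length behind them was 5.36 times the GENCODE exon length. Over 61 genes in and around the major histocompatibility complex on chromosome 6, where ABCF1 lies, the median of this ratio was 4.53, against 0.727 over all genes. The level of ABCF1 is therefore uncertain, and no direction is given for it. Of 14 tested partners in ribosome recycling and the GCN pathway, 2 rose and none fell (14.3% called, against 15.1% of all genes). GCN1, the ribosome-bound activator of the kinase GCN2, rose to 56.9 ± 4.97 FPKM in LenR, against 42.8 ± 2.88 FPKM in WT (0.40, limma adjusted p = 0.0193), and lies on chromosome 12, where 74 of 77 tested genes within 5 Mb were above 0. Its call ended without either WT replicate 1 (0.0965) or 2 (0.0806), and without LenR replicate 1 (0.0685). EIF2AK4, which encodes GCN2, rose by 0.37 (limma adjusted p = 0.0206), and its call ended without WT replicate 1 (0.0904) or WT replicate 2 (0.091). ETF1 and GSPT1, the release factors that act before ABCE1, had log2 fold changes of −0.04 and 0.02.

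Of 10 tested multidrug resistance genes outside the family, 3 rose and 1 fell (40.0% called, against 15.1% of all genes, 8.57% higher and 6.57% lower). These genes were listed with earlier results of the data known, so their share is a description and not a test. MGST1, a microsomal glutathione S-transferase, measured 22.8, 17.9 and 23.7 FPKM in LenR replicates 1 to 3, against 6.00, 5.82 and 5.20 FPKM in WT replicates 1 to 3 (log2 fold change 1.74, limma adjusted p = 0.0001). MVP, the major vault protein, fell to 40.5 ± 2.96 FPKM in LenR, against 54.1 ± 3.03 FPKM in WT (−0.41, limma adjusted p = 0.012), and its call ended without WT replicate 1 (0.0503). Of 11 tested genes of the NRF2 pathway, which drives several ABCC pumps and ABCG2, 1 rose and none fell (9.09% called, against 15.1% of all genes). This was the thioredoxin reductase TXNRD1 (81.1 ± 3.63 FPKM in LenR, 54.5 ± 1.93 FPKM in WT, 0.56, limma adjusted p = 0.00139), again on chromosome 12, where 41 of 48 tested genes within 5 Mb were above 0 (median 0.35). The median log2 fold change of the 11 genes was 0.07. Among those that did not pass, NQO1 had a log2 fold change of −0.07 (limma adjusted p = 0.674) and SLC7A11 had 0.32 (limma adjusted p = 0.0807). Whether NRF2 had a part in the ABC differences was not tested.

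TAP1 and TAP2 are ABC proteins as well, the subunits of the peptide pump that serves MHC class I, although their symbols fall outside the rule. TAP2 was listed at 0.346, 0.349 and 0.342 FPKM in LenR replicates 1 to 3, against 0.640, 0.691 and 0.701 FPKM in WT replicates 1 to 3, and fell on the reads (log2 fold change −0.96, SE 0.0801, voom adjusted p = 0.000114). TAP1 measured 0.0386 to 0.0464 FPKM in LenR and 0.0598 to 0.0839 FPKM in WT libraries (−0.73, voom adjusted p = 0.0472), a call kept without WT replicate 3 (0.0395) and lost without any other 1 library (adjusted p up to 0.172). The lengths behind these values were 7.70 and 5.24 times the GENCODE exon lengths of TAP2 and TAP1, as for ABCF1, so their levels are uncertain. TAPBP, tapasin, which ties the pump to MHC class I, had a log2 fold change of 0.26 (limma adjusted p = 0.544), with LenR replicate 2 at 2.90 FPKM and all other libraries at 0.996 to 1.18 FPKM. Its length was 4.04 times the exon length, so its level is uncertain too.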

How the data were processed

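RNA-seq was measured in 3 LenR and 3 WT libraries of MM.1S cells. The values are FPKM per gene, as the authors deposited them, per the labels' column description; the submitters' processing notes list edgeR 3.40.2, featureCounts 2.0.3, HISAT2 2.2.1, FastQC 0.11.9 and the build hg38, with no roles. Neither the gene annotation nor the strand setting of the counting is given in the sources used here.

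FPKM values step by what 1 read is worth, so reads and gene lengths were worked out from the steps. All 12760 genes gave whole reads (tolerance 0.0001), of which 119 needed multiplying by a common factor, and the median gene had 511 reads in a library. Depth was 14500140 to 17169574 reads in LenR and 14685382 to 17387914 in WT.

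The main test was limma 3.58.1 (R 4.3.3) on log2(FPKM + 1), a scale that understates changes of low genes, with a trended empirical Bayes step and Benjamini-Hochberg adjustment over 11276 genes averaging 1 FPKM or more; a gene was called at adjusted p 0.05 or below. Voom (limma) on the recovered reads of all genes was an alternative. Positions and exon lengths came from GENCODE 29, upstream windows from RefSeq, and figures from Python 3.11.15 with matplotlib 3.10.9. Named were called members and 8 members chosen by name, with others given by range or mean. From each pathway list, the called gene with the highest and the lowest fold change was named. Partner genes that were not called, genes below 1 FPKM, and SREBF1, NPC2 and MYLIP were added after their values were seen. The values of 2 members, which were part of the fits and the counts, are not reported here. Members and lists were chosen with earlier results of these data known. Other settings of the pseudocount, minimum, scaling, replicate block and libraries are given in the closing section.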

Additional observations from a re-analysis of the deposited data

How the results depend on the processing

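Main counts were 3 members and 1707 genes called. With WT replicates 1 and 2 averaged they were 1 and 1055, with a minimum of 5 FPKM 1 and 1075, without a minimum 5 and 2084, and by voom on reads 7 and 2175. Pseudocounts of 0.1 and 0.5 gave 3 members each and 1700 and 1703 genes. Rescaling to the same FPKM total gave 2 and 1489, where ABCA3 was not called (adjusted p = 0.0674), rescaling by median ratio 3 and 1704, and quantile normalization 3 and 1678. Leaving out 1 library gave 1 to 4 members and 1006 to 1562 genes. ABCB6 kept its direction and call in all 18 alternatives; ABCB9 lost its call in 6 of 17 and ABCA3 in 9 of 17, with no change of direction.

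Same-numbered libraries did not deviate together (correlations 0.024, −0.557 and −0.683). Across numbers, LenR replicate 2 with WT replicate 3 gave 0.686, and LenR replicate 3 with WT replicates 1 and 2 gave 0.516 and 0.526. LenR replicate 2 with WT replicate 1 gave −0.489, and LenR replicate 1 with WT replicates 2 and 3 gave 0.106 and −0.0863. Deviations from means of 3 constrain each other, so these values cannot settle whether the numbers pair the libraries. A batch shared across the groups was not tested. With the replicate number as a block, 1 member (ABCB6) and 907 genes were called.

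Signs changed for ABCB10 (0.00 without WT replicate 2 and 0.01 without LenR replicate 1, over a range of −0.05 to 0.01), ABCC10 (0.03 without WT replicate 3 and 0.02 without LenR replicate 3, over a range of −0.12 to 0.03) and ABCF1 on reads (−0.04 in the 4 libraries without WT replicate 3 and LenR replicate 2). ABCF1 passed as higher on reads without LenR replicate 3 (1.51, voom adjusted p = 0.0235) and with the block (0.91, 0.0281). The cause was not tested. Read-based alternatives for genes below 1 FPKM were chosen after seeing the data. Depth limits ABCA1 and ABCA9 most, at 7 to 22 reads per library; these cover counting error only.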
